A study of Homo sapiens with 12 samples.

Results

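The mature miRNAs of the miR-23, miR-27 and miR-24 clusters were followed through SOX2 knock-down in a pair of human embryonal carcinoma cell (hECC) lines. Members were the assays of the deposited normalised table numbered 23, 24 or 27 that read a major strand, meaning an assay name without the # sign that marks a minor strand. This rule found 3 of the 501 assays, hsa-miR-24, hsa-miR-27a and hsa-miR-27b, written here without the species prefix. None of these 501 assays read the major strand of miR-23a or miR-23b, so those strands were not analysed here. The deposited tables also held 5 assays for minor strands of the same hairpins.

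MiRNA levels were measured by pre-amplified TaqMan qRT-PCR on array cards A and B in 12 samples, 3 per group, labelled as biological replicates. The groups were 2102Ep cells with SOX2 siRNA (2102Ep siSOX2), 2102Ep cells with Silencer Select Negative Control #1 (2102Ep NC), NTera-2 cells with SOX2 siRNA (NTera-2 siSOX2) and NTera-2 cells with the same control siRNA (NTera-2 NC). The 2102Ep line is known as nullipotent because it resists differentiation by retinoic acid, and NTera-2 as pluripotent. Differentiation of 2102Ep cells can still be brought about by silencing SOX2 or OCT4, or by growth at low density, as the authors state. The siRNA was given at 15 nM with Lipofectamine 2000 to 2102Ep cells (passage 35 to 50) and at 30 nM with Lipofectamine RNAiMAX to NTera-2 cells (passage 40 to 50). Transfection lasted 6 h and cells were grown on for 72 h. The lines therefore differed in dose and transfection reagent as well as in cell type, and these cannot be told apart in any comparison of the lines. All NC samples had also been transfected. SOX2 mRNA is not read by these cards and its level was not analysed here.

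MicroRNAs are short RNAs cut as a duplex from a hairpin precursor, and one arm of the duplex, the major strand, usually guides repression of mRNAs that pair with its seed. The miR-23, miR-27 and miR-24 hairpins lie side by side in a pair of vertebrate clusters and are transcribed together. MiR-27 is known as a repressor of the adipocyte regulator PPARG, miR-24 as a repressor of MYC and E2F2 in differentiating blood cells, and the clusters as a whole for roles in vessels, muscle and blood cells.

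In the RefSeq annotation of GRCh38.p14, MIR23B, MIR27B and MIR24-1 span 881 bp at chr9:95085208-95086088 on the + strand, inside the bounds of the protein-coding gene AOPEP. MIR23A, MIR27A and MIR24-2 span 373 bp at chr19:13836287-13836659 on the - strand, inside the bounds of MIR23AHG, their host RNA gene. The members are shown because both miR-27 forms share a seed, and the opposite arms of their hairpins because these differ in seed. Capitals mark the seed, bases 2 to 8, in RefSeq mature sequences written 5′ to 3′:
miR-24: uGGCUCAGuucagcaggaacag
miR-27a: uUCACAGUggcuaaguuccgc
miR-27b: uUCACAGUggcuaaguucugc
miR-27a#: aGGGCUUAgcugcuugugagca
miR-27b#: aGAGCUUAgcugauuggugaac

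MiR-24 is the same 22 bases from both loci (chr9:95086064-95086085, + strand, and chr19:13836289-13836310, - strand), so its assay does not say which cluster the RNA came from. MiR-27a (chr19:13836447-13836467, - strand) and miR-27b (chr9:95085505-95085525, + strand) come from 1 cluster each. They share the seed UCACAGU and differ at 1 of 21 bases, C19U, counted from the 5′ end with the miR-27a base first. How far each miR-27 assay also reads the other miRNA was not tested. The minor strands of the miR-27 hairpins have seeds of their own, GGGCUUA in miR-27a# and GAGCUUA in miR-27b#.

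Values are given as dCt, the PCR cycle at which a miRNA was detected (Ct) minus a constant of the sample and card. A lower dCt means more RNA, and 1 cycle is about 1 unit of log2. On card A, which holds all 3 members, this constant was, in every sample, the average of the miR-16 and U6 cycles. Each 2102Ep sample had 422 to 434 assays with a value and each NTera-2 sample 449 to 451, replicates correlated at 0.94 to 0.989 over all assays, and no pair of samples was identical. All 8 assays of the pluripotent marker list (miR-302a to miR-302d, miR-367, miR-371-3p, miR-372 and miR-373) were measured in every sample. Their summed linear level, relative to the mean of card assays measured in all samples, was 756 to 826 in 2102Ep siSOX2 and 824 to 851 in 2102Ep NC, and 3253 to 4041 in NTera-2 siSOX2 and 3139 to 3791 in NTera-2 NC. The order of the lines in this sum was not tested with another reference. Set against the card mean, 6 of 8 were called higher and 2 lower in NTera-2 NC than in 2102Ep NC. Of all 386 assays, 70.7% were called there. Mean raw Ct was 19.1 in 2102Ep NC and 25.2 in NTera-2 NC for miR-371-3p, and 16.7 and 22.9 for miR-372. Between siSOX2 and NC, with limma, 0 of 8 were called in 2102Ep cells (0 at an unadjusted p under 0.05) and 1 of 8 was lower in NTera-2 cells (3 at an unadjusted p under 0.05). Of the 4 neural markers, 0 were called in either line (0 in 2102Ep and 1 in NTera-2 at an unadjusted p under 0.05), with summed levels of 38.3 to 64.7 in 2102Ep siSOX2 against 12.7 to 60.3 in 2102Ep NC, and of 10.6 to 13.6 in NTera-2 siSOX2 against 7.89 to 9.99 in NTera-2 NC. The opposite strand of the neural marker miR-9, miR-9#, was not on the list and rose in 2102Ep cells (log2 fold change 2.26, limma, adjusted p = 0.00026), with a change of 0.12 in NTera-2 cells (adjusted p = 0.83). Of the 19 markers listed as mesenchymal and muscle, endothelial, blood or hepatic endoderm, 10 were tested in each line. In 2102Ep cells 0 of 10 were called (1 at an unadjusted p under 0.05), where 14.1% of all assays were called. In NTera-2 cells 1 of 10 was higher (4 at an unadjusted p under 0.05), where 5.54% of all assays were called. It was on the mesenchymal and muscle list, of which 3 were tested in NTera-2 cells. The part of any of these markers in the members' changes was not tested.

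The first comparison asked whether the members changed in 2102Ep cells when SOX2 was silenced. The hsa-miR-27b assay rose 2.76-fold and the hsa-miR-24 assay 1.96-fold. The hsa-miR-27a assay read 1.38-fold the NC level and did not pass the test. Thus 2 of 3 members were called higher at an adjusted p under 0.05, where 14.1% of all 432 assays tested were called and 4.63% were called higher. In RNA from whole cultures, more cells that hold a miRNA and more of it per cell cannot be told apart.

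MiR-27b, the chromosome 9 form of miR-27, had dCt values of 6.16, 6.22 and 6.09 in 2102Ep siSOX2, against 7.74, 7.45 and 7.67 in 2102Ep NC. The values of the 3 siSOX2 samples lay within 0.135 cycles of each other and more than 1 cycle from every NC sample. The log2 fold change was 1.46 ± 0.19 (SE, 95% interval 1.04 to 1.88, limma, adjusted p = 0.0016), or 2.76-fold with an interval of 2.06 to 3.69. It stood 14th from the highest of the 432 changes.

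MiR-24, shared by the clusters, was the most readily detected member, with dCt values of 2.69, 2.76 and 2.26 in 2102Ep siSOX2, against 3.48, 3.64 and 3.48 in 2102Ep NC. The groups did not overlap, and siSOX2 replicate 3 lay apart from the other siSOX2 samples on the side of more RNA. The log2 fold change was 0.97 ± 0.21 (SE, 95% interval 0.50 to 1.44, limma, adjusted p = 0.011). An unequal-variance test of each assay alone ended this call (adjusted p = 0.14), while it also called only 8 assays in all.

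MiR-27a, the chromosome 19 form of miR-27, had dCt values of 6.03, 6.24 and 6.15 in 2102Ep siSOX2, against 6.40, 6.87 and 6.56 in 2102Ep NC. All siSOX2 samples were on the side of more RNA, by a margin of 0.155 cycles between the nearest samples. The log2 fold change was 0.47 ± 0.20 (SE, 95% interval 0.03 to 0.90, limma, unadjusted p = 0.04, adjusted p = 0.17). The siSOX2 and NC values did not overlap for 3 of 3 members, all higher, where 31.9% of all assays did not overlap and 13.9% did so with the higher values in siSOX2.

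**Figure D1:**
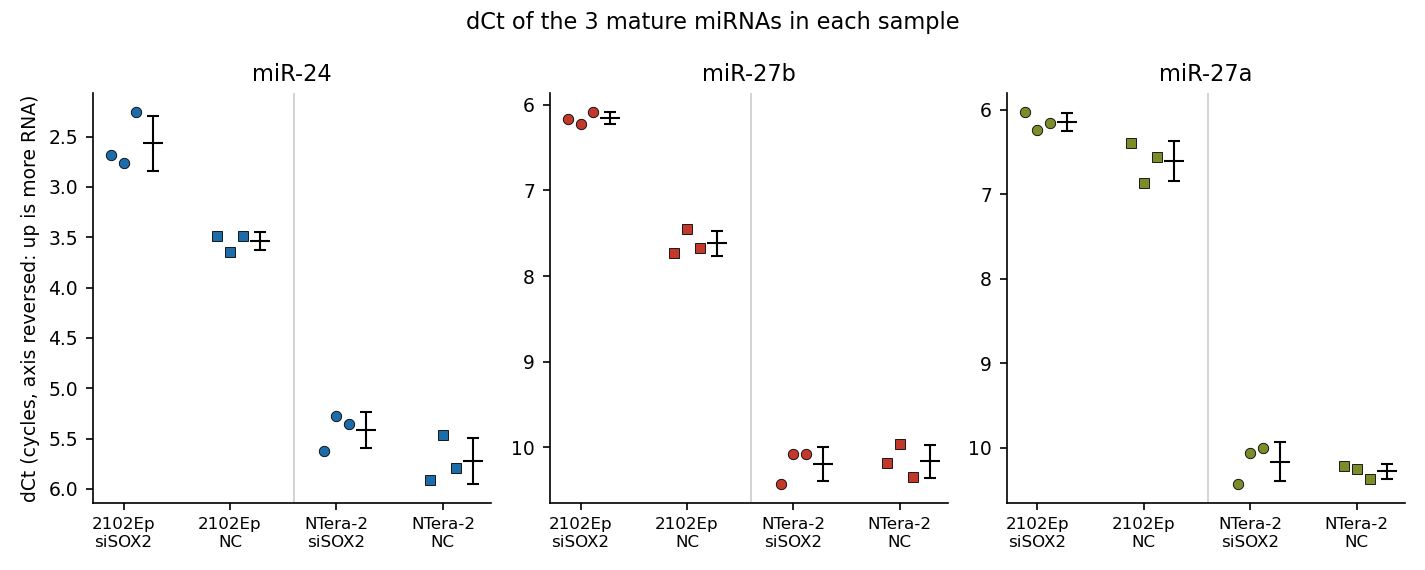
The dCt of miR-24, miR-27b and miR-27a is plotted on a reversed axis (cycles, own scale per panel) for each of the 12 samples by group, with circles for siSOX2, squares for NC and black marks for the mean ± SD of 3 samples. The 2102Ep siSOX2 values of miR-27b, 6.09 to 6.22, stand clear of the 2102Ep NC values, 7.45 to 7.74, whereas the NTera-2 groups overlap in all 3 panels.

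The rise of miR-27b and miR-24 in 2102Ep cells did not turn on the reference RNA. With another reference (U6 by itself, the mean or the median of all card assays, or RNU44 with RNU48), the log2 fold change of miR-27b lay between 1.46 and 1.81 and that of miR-24 between 0.97 and 1.32, each below an adjusted p of 0.05 with limma. That of miR-27a lay between 0.47 and 0.82, and its adjusted p between 0.069 and 0.14. The median change of all 432 assays was -0.0009 with the deposited constants. The number of assays called in all, 61, was 40 without NC replicate 1 and 37 without NC replicate 3, and both miR-27b and miR-24 were called in each of those fits.

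The same question in NTera-2 cells gave no called member. With limma, 0 of 3 passed, and 0 of 3 had an unadjusted p under 0.05, where 5.54% of all 451 assays were called. MiR-24 was 1.23-fold, miR-27a 1.08-fold and miR-27b 0.976-fold the NC level. No alternative fit or test called any of the 3.

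MiR-27b had dCt values of 10.4, 10.1 and 10.1 in NTera-2 siSOX2, against 10.2, 9.96 and 10.3 in NTera-2 NC. The values interleaved, and the log2 fold change was -0.03 ± 0.19 (SE, 95% interval -0.46 to 0.39, limma, adjusted p = 0.95). The interval excludes a change of the size measured for miR-27b in 2102Ep cells.

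MiR-24 had dCt values of 5.62, 5.28 and 5.36 in NTera-2 siSOX2, against 5.91, 5.47 and 5.79 in NTera-2 NC. By dCt, each siSOX2 sample had more RNA than the NC sample of the same replicate number, yet the ranges overlapped. In replicate 2 the raw Ct was later in siSOX2 (20.2) than in NC (19.9). The log2 fold change was 0.30 ± 0.21 (SE, 95% interval -0.16 to 0.77, limma, adjusted p = 0.46).

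MiR-27a had dCt values of 10.4, 10.1 and 10.0 in NTera-2 siSOX2, against 10.2, 10.3 and 10.4 in NTera-2 NC. Replicate 1 of siSOX2 had less RNA than all NC samples and the other two had more, giving a log2 fold change of 0.12 ± 0.20 (SE, limma, adjusted p = 0.82). The median of all 451 changes was -0.27 with the deposited constants, so all 3 members stood above the middle of the distribution, at places 63 (miR-24), 100 (miR-27a) and 142 (miR-27b) from the highest. Against the global mean their changes were 0.51, 0.32 and 0.17, and the sign of miR-27b was then positive. The change of miR-24 was 0.12 with U6 and 0.20 with RNU44 and RNU48. The sign of miR-27a was negative against U6 (-0.07). The count of assays called in NTera-2 cells, 25, was 7 with the replicate number as a block, 10 without NC replicate 3, 14 without siSOX2 replicate 1 and 14 without siSOX2 replicate 2.

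**Figure D2:**
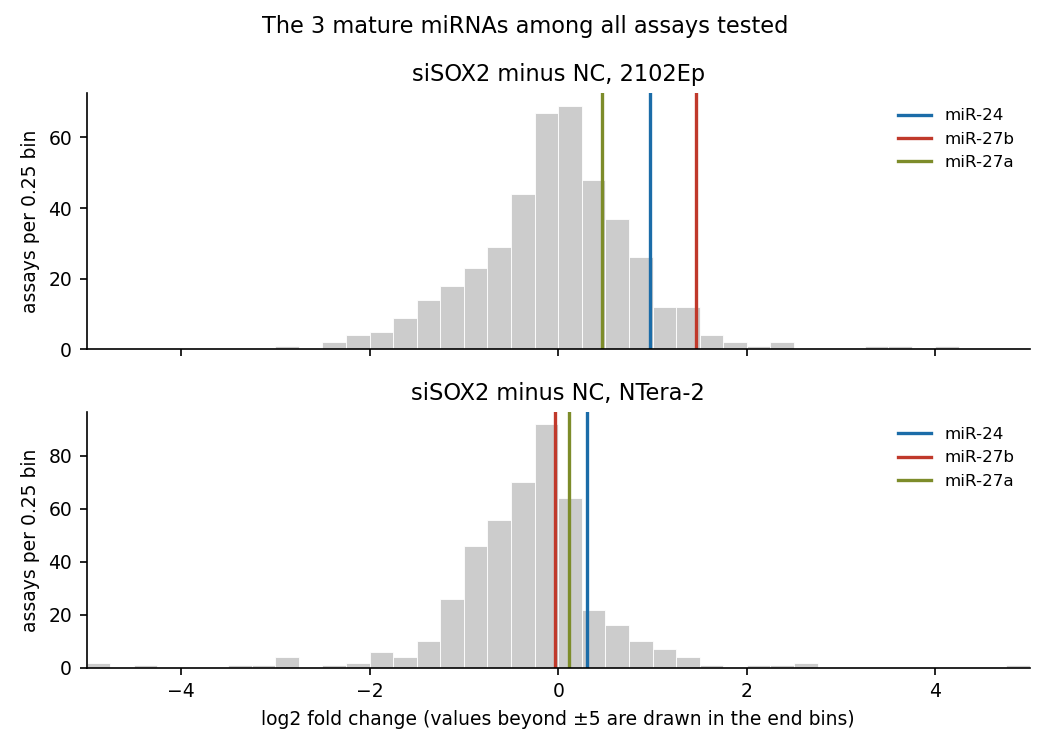
Grey bars count assays (vertical axis) by log2 fold change of siSOX2 over NC (horizontal axis, bins of 0.25) for all 432 assays tested in 2102Ep (top) and all 451 in NTera-2 (bottom), and coloured lines mark the members. In 2102Ep, miR-24 at 0.97 and miR-27b at 1.46 lie on the upper side of the bars, whereas in NTera-2 the 3 lines fall between -0.03 and 0.30 and 3 assays beyond the axis are counted in the end bins.

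Whether the responses of the lines differed was tested directly, as the NTera-2 change minus the 2102Ep change. MiR-27b differed, by -1.50 ± 0.27 on the log2 scale (SE, 95% interval -2.09 to -0.90, limma, adjusted p = 0.014), and stood 33rd from the lowest of 385 differences. It was 1 of 3 members called, where 4.42% of all 385 assays were called and 2.6% were called in this direction. The difference was -0.66 ± 0.30 for miR-24 (95% interval -1.32 to -0.0044, adjusted p = 0.22) and -0.35 ± 0.28 for miR-27a (95% interval -0.97 to 0.27, adjusted p = 0.56). The changes of these members were therefore not shown to differ between the lines, and the intervals still allow differences of about 1 log2 unit. The miR-27b call was lost without NTera-2 siSOX2 replicate 1 (-1.38, adjusted p = 0.054) and with the replicate number as a block (-1.50, adjusted p = 0.070). It held in all other fits tried, with values from -1.95 to -1.35. The total of 17 assays called was 4 without NTera-2 siSOX2 replicate 1, 9 without its replicate 2, 5 without NTera-2 NC replicate 3, 27 without NTera-2 NC replicate 2, 11 without 2102Ep NC replicate 2 and 7 without 2102Ep NC replicate 3.

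**Figure D3:**
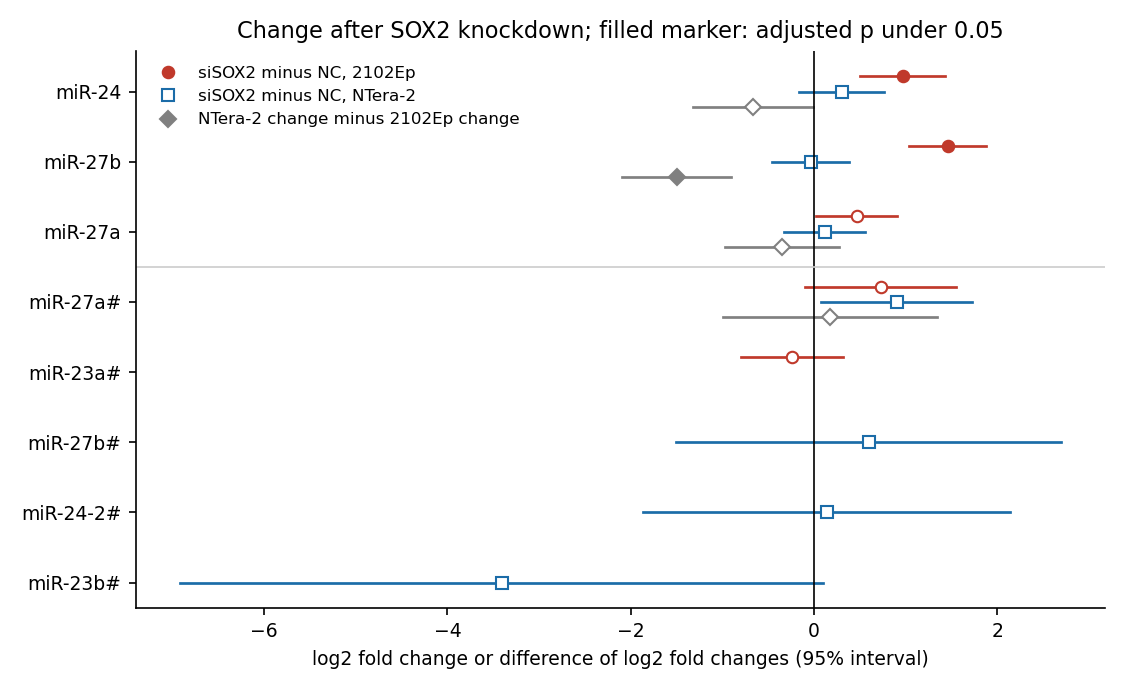
Log2 fold changes of siSOX2 over NC in 2102Ep (circles) and NTera-2 (squares) and the NTera-2 change minus the 2102Ep change (diamonds) are shown with 95% intervals on the horizontal axis for the members and, under the grey line, the minor strands, with filled markers for an adjusted p under 0.05. MiR-27b has filled markers at 1.46 in 2102Ep and at -1.50 for the difference, miR-24 has 1 at 0.97 in 2102Ep, and the minor strands have none.

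The gap between the miR-27 assays within a sample needs no reference RNA, since both were read on card A. The raw Ct of miR-27b minus that of miR-27a was 0.13, -0.02 and -0.07 cycles in 2102Ep siSOX2, against 1.34, 0.58 and 1.11 cycles in 2102Ep NC. It was -0.0033, 0.02 and 0.08 cycles in NTera-2 siSOX2, against -0.03, -0.30 and -0.03 cycles in NTera-2 NC. Thus 2102Ep NC was the group in which miR-27b was detected clearly later than miR-27a, and in the other groups the assays read within 0.301 cycles of each other. Between the 2102Ep groups the gap changed by -0.997 ± 0.23 cycles (SE, n = 3 each, two-sided exact permutation test, p = 0.1, the smallest that 3 against 3 samples can give). Between the NTera-2 groups it changed by 0.15 ± 0.09 cycles (exact permutation p = 0.1). The exact test of 3 against 3 samples cannot reach 0.05, and the detection efficiencies of the assays were not tested, so a gap of 0 does not show equal amounts.

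**Figure D4:**
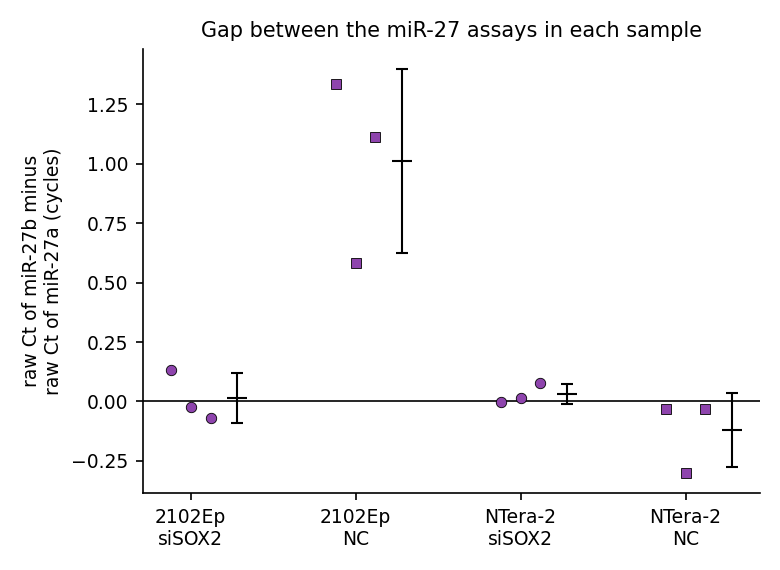
The raw Ct of miR-27b minus that of miR-27a (cycles, vertical axis) is plotted for each sample by group, with black marks for the mean ± SD of 3 samples. The 2102Ep NC samples sit at 0.58 to 1.34 cycles, and all other samples sit between -0.30 and 0.13.

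The gap from miR-24 to each miR-27 form was also compared. MiR-27a was detected 3.57 ± 0.29 cycles after miR-24 in 2102Ep siSOX2 and 3.07 ± 0.15 cycles after it in 2102Ep NC (SD, n = 3 each, exact permutation p = 0.1). MiR-27b followed miR-24 by 3.59 ± 0.21 cycles in 2102Ep siSOX2 and 4.08 ± 0.24 cycles in 2102Ep NC (exact permutation p = 0.2), so miR-24 stood between the miR-27 forms in the size of its change. In NTera-2 cells miR-27a followed miR-24 by 4.75 ± 0.09 cycles in siSOX2 and 4.56 ± 0.25 cycles in NC (exact permutation p = 0.3), and miR-27b by 4.78 ± 0.05 cycles in siSOX2 and 4.44 ± 0.15 cycles in NC (exact permutation p = 0.1). The distance from miR-24 to miR-27a, and that from miR-24 to miR-27b, was thus wider in NTera-2 than in 2102Ep cells under both siRNAs. Samples did not overlap, although for miR-27b the nearest NC samples were at 4.25 cycles in 2102Ep and 4.27 cycles in NTera-2.

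Levels of the lines were compared on raw Ct set against the mean of each card over assays measured in all samples compared. Under this global mean, miR-24 was 2.76-fold and miR-27b 2.16-fold higher in NTera-2 NC than in 2102Ep NC, with log2 fold changes of 1.47 ± 0.23 and 1.11 ± 0.28 (SE, limma, adjusted p = 0.0017 and 0.011). MiR-27a was level, at -0.02 ± 0.23 (adjusted p = 0.92). These 2 of 3 members called stand beside 70.7% of all 386 assays called and 38.9% called higher, so the share called in either direction is near that of the assays at large. Between the siSOX2 groups, 1 of 3 members was called, where 74.3% of 385 assays were called and 41.0% called higher. MiR-24 was again higher in NTera-2 (0.98 ± 0.26, adjusted p = 0.013), whereas miR-27b (-0.22 ± 0.20, adjusted p = 0.36) and miR-27a (-0.20 ± 0.20, adjusted p = 0.39) did not pass.

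The direction of these line differences turned on the reference. U6 was detected at Ct 14.7 to 15.1 in all 2102Ep samples and at 10.5 to 11.0 in all NTera-2 samples on card A, and the deposited constants include it. MiR-16, also in the card A constants, was detected at 21.1 to 21.8 in 2102Ep and 18.2 to 19.0 in NTera-2 samples. RNU44 and RNU48 on card A were likewise earlier in all NTera-2 samples. With the deposited dCt, miR-24 was lower in NTera-2 than in 2102Ep cells, by log2 values of -2.85 between siSOX2 groups and -2.19 between NC groups, and miR-27b and miR-27a were lower as well. With RNU44 and RNU48 the values of miR-24 were -1.19 and -0.07, and the value between NC groups did not pass (limma, adjusted p = 0.83). The order of the lines in any member is therefore tied to the reference chosen. All 3 members lie on card A, so another reference moves them together, and miR-24 had the highest value of the 3 in both comparisons.

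**Figure D5:**
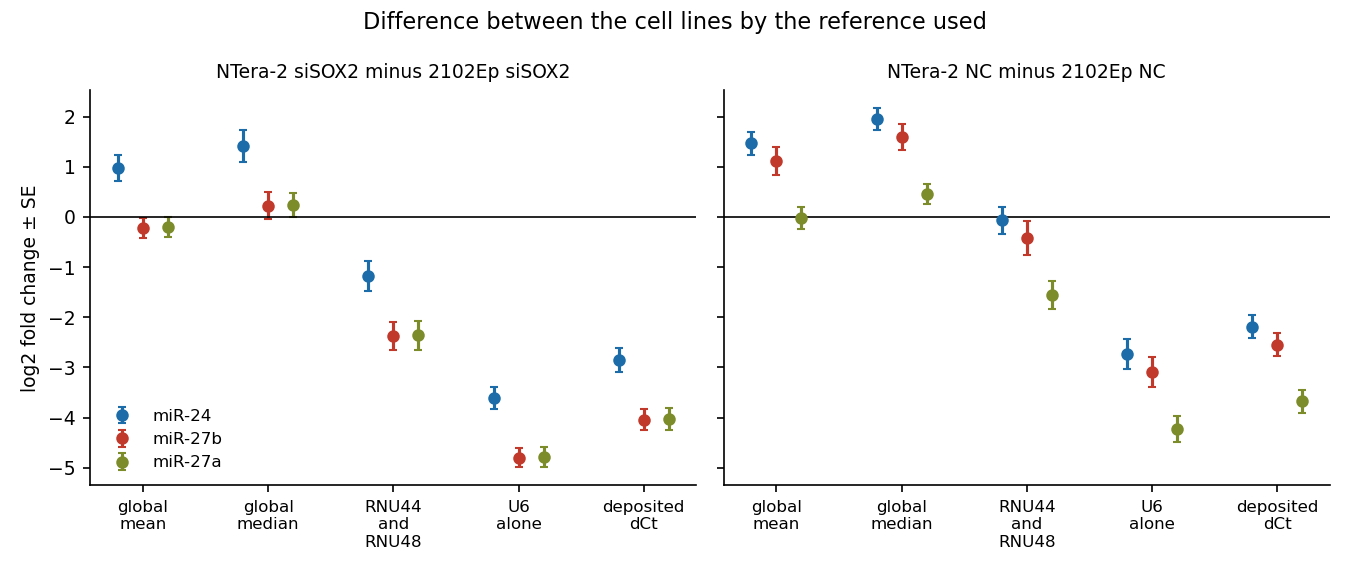
Log2 fold changes of NTera-2 over 2102Ep cells (vertical axis, ± SE) are shown for the siSOX2 groups (left) and the NC groups (right) by the reference used (horizontal axis). The points of miR-24 pass from 1.47 with the global mean to -2.73 with U6 alone in the NC groups, and in both panels all 3 members lie under 0 with RNU44 and RNU48, U6 or the deposited dCt.

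On a common scale, the log2 level relative to the mean of 224 card A assays measured in all 12 samples, miR-24 was highest in NTera-2 siSOX2 (4.43 ± 0.08), then NTera-2 NC (3.90 ± 0.21), 2102Ep siSOX2 (3.45 ± 0.37) and 2102Ep NC (2.44 ± 0.09; SD, n = 3 each). NTera-2 NC and 2102Ep siSOX2 overlapped, and the other neighbours did not. The order of the lines belongs to this scale. Between siSOX2 groups, miR-24 was lower in NTera-2 than in 2102Ep cells with the deposited dCt (-2.85), U6 (-3.61), and RNU44 with RNU48 (-1.19). Between NC groups it was lower with the deposited dCt (-2.19) and U6 (-2.73). With RNU44 and RNU48 the NC groups were not shown to differ in miR-24, at -0.066 ± 0.265 (SE, limma, adjusted p = 0.83). MiR-27b was highest in 2102Ep siSOX2 (-0.14 ± 0.17), then NTera-2 siSOX2 (-0.35 ± 0.07), NTera-2 NC (-0.54 ± 0.24) and 2102Ep NC (-1.64 ± 0.32). The NTera-2 groups overlapped each other, and 2102Ep NC lay below them on this scale. With the deposited dCt and U6, 2102Ep NC lay above NTera-2 NC (-2.54 and -3.09 for NTera-2 NC minus 2102Ep NC). With RNU44 and RNU48 that difference was -0.42 ± 0.33 and did not pass (SE, limma, adjusted p = 0.28). MiR-27a spanned the narrowest range, from -0.13 ± 0.14 in 2102Ep siSOX2 through -0.32 ± 0.09 in NTera-2 siSOX2 and -0.63 ± 0.07 in 2102Ep NC to -0.67 ± 0.17 in NTera-2 NC, with overlap between the first pair and between the last pair. On this scale, each member's siSOX2 mean was above its NC mean in both lines. In NTera-2 cells no member was called. The change of miR-27b there was -0.03 with the deposited dCt, -0.22 with U6 and -0.14 with RNU44 and RNU48. That of miR-27a was -0.07 with U6, while that of miR-24 stayed positive with each of these references.

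The minor strands were on card B, where the NTera-2 constant was the average over U6, RNU48 and miR-16-1#. In each 2102Ep sample the card B constant instead equalled the Ct of an assay near the middle of the card. That assay was a different one in each sample, always with 82 of 168 assays detected earlier and 85 later. The minor strands of the lines therefore stand against different kinds of reference. MiR-27a# was the 1 minor strand measured in all groups. Its dCt was 7.99, 7.96 and 7.96 in NTera-2 siSOX2, against 9.17, 8.60 and 8.85 in NTera-2 NC, with no overlap and siSOX2 on the side of more RNA. In NTera-2 cells 29.0% of assays did not overlap, 6.21% with more RNA in siSOX2 and 22.8% with less. The log2 fold change was 0.90 ± 0.37 (SE, limma, unadjusted p = 0.035, adjusted p = 0.18), and 1.42 with the global mean. In 2102Ep cells, its dCt was 1.77, 0.95 and 0.80 in siSOX2, against 2.07, 1.10 and 2.53 in NC, which overlapped (0.73 ± 0.37, adjusted p = 0.26). That value was 0.42 without NC replicate 3, 1.13 without NC replicate 2 and 1.29 with RNU44 and RNU48, none of them called.

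Its change did not pass the test in either line, and the difference between lines was 0.17 ± 0.53 (adjusted p = 0.90; 0.71 with the global mean and -0.32 with RNU44 and RNU48). Under the global mean its level was higher in NTera-2 than in 2102Ep cells, by 2.15 ± 0.34 between siSOX2 groups and 1.41 ± 0.43 between NC groups (limma, adjusted p = 0.0016 and 0.023), and lower with the deposited dCt (-6.80 and -6.97) and with RNU44 and RNU48 (-1.27 and -0.95). The call between NC groups was lost without 2102Ep NC replicate 1 or 3 and without NTera-2 NC replicate 2 or 3, at values from 1.08 to 1.45. The remaining minor strands were listed with values in 1 line each, and none of them passed. MiR-23a#, from the chromosome 19 cluster, was measured in 2102Ep cells alone, at dCt 4.35 to 4.65 in siSOX2 and 4.10 to 4.52 in NC (-0.24 ± 0.23, adjusted p = 0.61; 0.31 against RNU44 and RNU48). MiR-27b# and miR-24-2# were measured in NTera-2 cells alone, with changes of 0.60 ± 0.86 (adjusted p = 0.77) and 0.14 ± 0.82 (adjusted p = 0.96). For miR-27b# the 3 siSOX2 samples lay at dCt 8.0 to 8.32 and the NC samples at 6.89 to 10.5.

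MiR-23b# stood apart in its raw values. It was detected at Ct 9.14, 13.9 and 7.90 in NTera-2 siSOX2, against 6.87, 7.48 and 6.91 in NTera-2 NC, which in every NC sample was earlier than U6 on the same card (10.5, 10.0 and 10.4). The change of -3.41 ± 1.44 did not pass (95% interval -6.92 to 0.10, adjusted p = 0.24), although the groups did not overlap. It was -1.73 without siSOX2 replicate 2, the sample at Ct 13.9. It was blank in all 6 samples of 2102Ep cells.

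As a description of pattern, the 375 other assays measured in all 12 samples were ranked by the smaller of the Pearson correlations of dCt with a member, 1 within the 6 samples of each line. The samples of a line share a knock-down contrast and, within a card, a reference constant. Nearest to miR-27b were miR-339-3p (0.75 in 2102Ep and 0.74 in NTera-2), miR-328 (0.76 and 0.735) and miR-27a (0.78 and 0.72). Nearest to miR-27a were miR-9 (0.79 and 0.78), miR-149 (0.87 and 0.76) and miR-27b. Nearest to miR-24 were miR-191# (0.82 and 0.79), miR-9# (0.92 and 0.79) and miR-139-5p (0.82 and 0.78), while miR-27a stood at place 17 (0.85 and 0.62) and miR-27b at place 21 (0.94 and 0.55). The miR-27 forms were thus each among the 3 assays nearest to the other.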

How the data were processed

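Total RNA from 12 cultures (4 groups of 3 biological replicates, per the labels) was read by TaqMan array cards after pre-amplification. The authors exported raw Ct values from DataAssist 3.0, deposited on a log2 scale of cycles, and dCt values, also log2, from which 1 constant for each card of each sample had been taken off. A further deposited table holds the authors' fold change ratio and p-value per line and was not used.

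The 3 members were found by assay number, and the members, marker lists and tests were chosen with earlier results of these data known. Named assays were the members, minor strands of the same hairpins, reference RNAs and, per member, the 3 assays of most similar dCt. Raw Ct of 2102Ep siSOX2 replicate 3 was displaced by 1 measured row from row 106 on (0.592% of 338 values at the constant within 0.02 cycles as placed, 99.7% after moving). The moved values were used for RNU44, RNU48 and U6. For assays of that sample with a dCt, raw Ct was set to dCt plus the constant. A blank dCt in each 2102Ep sample, where raw Ct equalled the constant, was set to 0, and blank raw Ct of miR-142-3p and miR-586 was set to dCt plus the constant.

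Minus dCt was tested with limma 3.58.1 (R 4.3.3, 4 group means over 12 samples, eBayes, two-sided) for assays with a value in 2 or more of the 3 samples on both sides, with Benjamini-Hochberg adjustment over all assays tested. The lines were compared on raw Ct minus the global mean per card, with limma over the 6 samples compared. A call is an adjusted p under 0.05, and scripts were tested on simulated data. Samples with the same replicate number deviated together in NTera-2 cells (residual correlations 0.12, 0.26 and 0.16 over 445 assays), which pairs them by the data, not by a label. In 2102Ep cells 1 of 3 pairs was under 0.1 (0.157, 0.161 and 0.04 over 419 assays). With 3 samples a group, their number limits the precision. Alternatives were other reference RNAs, filters on late Ct, handling of blanks, tests of each assay alone, other samples in the fit, an intensity trend, the replicate block and leaving out each sample.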

Additional observations from a re-analysis of the deposited data

Results flagged for a closer look

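The response of miR-27b differed between lines: the NTera-2 log2 fold change minus the 2102Ep log2 fold change after SOX2 knock-down was -1.50 (SE 0.27; limma, adjusted p = 0.014; 33rd from the lowest of 385 assays). The call was lost with the replicate number as a block (adjusted p = 0.070) and without NTera-2 siSOX2 replicate 1 (adjusted p = 0.054). All 3 siSOX2 samples were above all NC samples in 2102Ep cells, and the groups overlapped in NTera-2 cells. The siRNA dose and the transfection reagent differed between the lines, as did, per the paper, the SOX2 mRNA left after SOX2 siRNA. Their part cannot be told apart from that of the line.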

How the results depend on the processing

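Of 471 values of named assays under alternatives, 421 kept their direction and their side of the threshold. Filters on late Ct, tests of each assay alone, an intensity trend and the replicate block left these fold changes as they were. There the direction could not turn, only the side of the threshold. In 2102Ep cells, 61 assays were called, 39 with an equal-variance test per assay and 8 with an unequal-variance test, which called 1 of 3 members (miR-24 0.97, adjusted p = 0.14). Without single samples the count was 37 to 53. MiR-23a# turned to 0.31 with RNU44 and RNU48.

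In NTera-2 cells, the 25 calls became 15 with the global mean, 13 with RNU44 and RNU48, 9 and 3 with equal- and unequal-variance tests, 11 from the line's own 6 samples, 7 with the replicate block, and 10 to 24 without single samples. Changes near 0 turned sign: miR-27a was -0.066 with U6, and miR-27b 0.17 with the card mean, 0.0041 with the card median and -0.13 to 0.082 without single samples. Without single samples miR-27b# was -0.27 to 1.52 and miR-24-2# -0.71 to 0.86.

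For the difference of responses, 17 calls became 34 with RNU44 and RNU48, 29 and 6 with equal- and unequal-variance tests, 1 with the replicate block and 4 to 27 without single samples. Calls among members were 0 with the block, where miR-27b stayed at -1.50 with an adjusted p of 0.070, and 0 to 1 without single samples, with miR-27b at -1.59 to -1.38. MiR-27a# turned to -0.32 with RNU44 and RNU48 and was -0.22 to 0.49 without single samples. The block changed no other call of a member. Its check of pairing across the lines gave residual correlations of -0.06 to 0.09.

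Between the lines, the deposited dCt, U6 alone, and RNU44 with RNU48 shift all card A assays together. NTera-2 NC minus 2102Ep NC became -2.19, -2.73 and -0.066 for miR-24, -2.54, -3.09 and -0.42 for miR-27b and -3.68, -4.22 and -1.56 for miR-27a, with 1 of 3 members called under RNU44 and RNU48, where 69.9% of all assays were called. MiR-27a was 0.46 with the global median and -0.11 to 0.065 without single samples. MiR-27a# was -6.97 with the deposited dCt, -0.95 with RNU44 and RNU48, 0.957 with the global median, 1.41 but not called with tests of each assay alone, and 1.08 to 1.78 without single samples. NTera-2 siSOX2 minus 2102Ep siSOX2 became -2.85, -3.61 and -1.19 for miR-24, -4.04, -4.80 and -2.38 for miR-27b and -4.02, -4.78 and -2.36 for miR-27a, with 3 of 3 called each time, where 96.6%, 97.4% and 77.4% of all assays were called. With the global median miR-27a was 0.24 and miR-27b 0.22. MiR-27a# was -6.80 with the deposited dCt and -1.27 with RNU44 and RNU48. An unequal-variance test called 0 of 3 (miR-24 0.98, adjusted p = 0.061), where no alternative fit or test called fewer than 227 assays in all. U6 alone gave no value for card B assays of 2102Ep cells, so none for their minor strands. Causes were not tested beyond the shared shift.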
